A study of Mus musculus with 23 samples.

Results

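The 4 syndecans and 6 receptors of cell adhesion (Sdc1, Sdc2, Sdc3, Sdc4, Itga5, Itgav, Itgal, Icam1, Vcam1 and Cd44) were followed in macrophages that lacked the kinase MK2 or both MK2 and MK3. They were found by name through the accession of each probe, make up 10 of 26512 genes tested, and were read by 16 of 33391 probes with an accession. Bone marrow-derived macrophages (BMDM) came from male C57BL/6 mice of 10 to 14 weeks, the deficient animals being on a C57BL/6J background per the study's methods, and were differentiated for 9 days with M-CSF at 10 ng/ml. They were wild type (wt), MK2-deficient (MK2-/-) or deficient in both kinases (MK2/3-/-), and had been kept for 120 min in medium or with 100 ng/ml LPS, the bacterial ligand of Toll-like receptor 4. RNA was read on 23 one-colour Agilent arrays, 4 per group except for the 3 of MK2-/- BMDM in medium. The study describes the animals as deficient and names no deletion limited to a cell type, so that the macrophages also differentiated without the kinases.

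All arrays of a genotype were on a slide of their own, and slide and genotype cannot be told apart. Medium and LPS samples lay in different rows of the slide, so that position and treatment cannot be told apart either. Between 47.5% and 69.1% of the probes were marked by the scanner software as well above background, that is, clear of the surroundings of the spot, and both extremes were MK2/3-/- arrays in medium. Mapkapk2, which encodes MK2, had a mean log2 signal of 12.22 in wt BMDM, 8.91 in MK2-/- and 8.72 in MK2/3-/- BMDM in medium. Mapkapk3, which encodes MK3, had 13.50, 13.74 and 11.88. Of the macrophage markers matched, all 7 were well above background on every array. The summed signal of 7 stromal cell markers varied between cultures from 551 to 107400, and it is set beside the results below.

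Syndecans are transmembrane proteoglycans whose heparan sulfate chains bind matrix proteins, growth factors and chemokines, and whose core proteins are cut from the cell surface by sheddases. Syndecan-4 acts with integrins in focal adhesions. Integrins are pairs of an alpha and a beta chain. Itga5 and Itgav encode the alpha chains of receptors for fibronectin and vitronectin, and Itgal that of LFA-1, which binds ICAM-1. Icam1 and Vcam1 encode members of the immunoglobulin superfamily that serve as ligands for leukocyte integrins, and Cd44 encodes the main receptor for hyaluronan.

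LPS raised Sdc4, Itga5, Itgav, Icam1, Vcam1 and Cd44 in BMDM of each genotype, and Itgal in MK2-/- and MK2/3-/- BMDM. In wt BMDM 6 of the 10 members were called higher and 0 lower at an adjusted p under 0.05 (limma, Benjamini-Hochberg over all genes), compared with 8.16% of all genes called higher and 8.78% called lower. In MK2-/- BMDM 7 of 10 were called higher against 8.41% of all genes (0 lower against 9.98%), and in MK2/3-/- BMDM 7 of 10 against 11.9% (0 lower against 12.8%). The median log2 difference of the members was 2.32, 2.57 and 2.61, while that of all genes was 0.01, -0.01 and -0.02. Medium and LPS arrays did not overlap for 6 members of wt, 7 of MK2-/- and 7 of MK2/3-/- BMDM, as was so for 22.8%, 32.7% and 26.2% of all genes. These counts are descriptive, as the members, and the lists of further genes below, were chosen with earlier results of these data known. For every gene, the probe was the one that LPS raised most in wt BMDM. Sdc1, Sdc2 and Sdc3 were not called in any genotype in this fit, which does not pair the arrays of a culture.

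**Figure D1:**
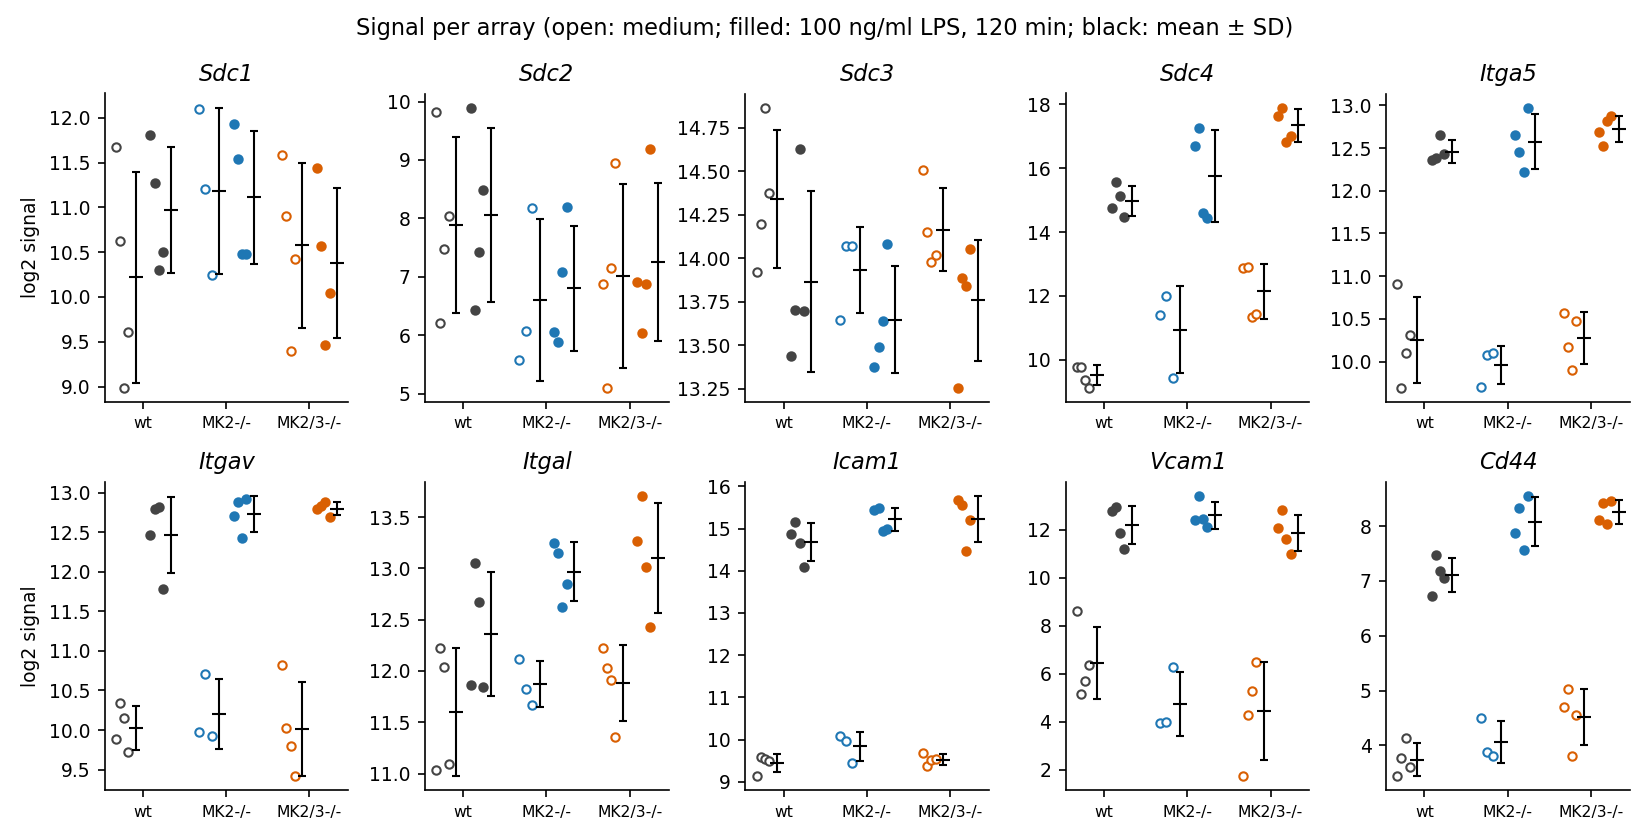
Log2 signal of the 10 members on each of the 23 arrays, by genotype on the horizontal axis, with open points for medium, filled points for LPS and the mean ± SD in black; each panel has its own scale. The medium and LPS points lie apart for Sdc4, Itga5, Itgav, Icam1, Vcam1 and Cd44 and overlap for Sdc1, Sdc2 and Sdc3.

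**Figure D2:**
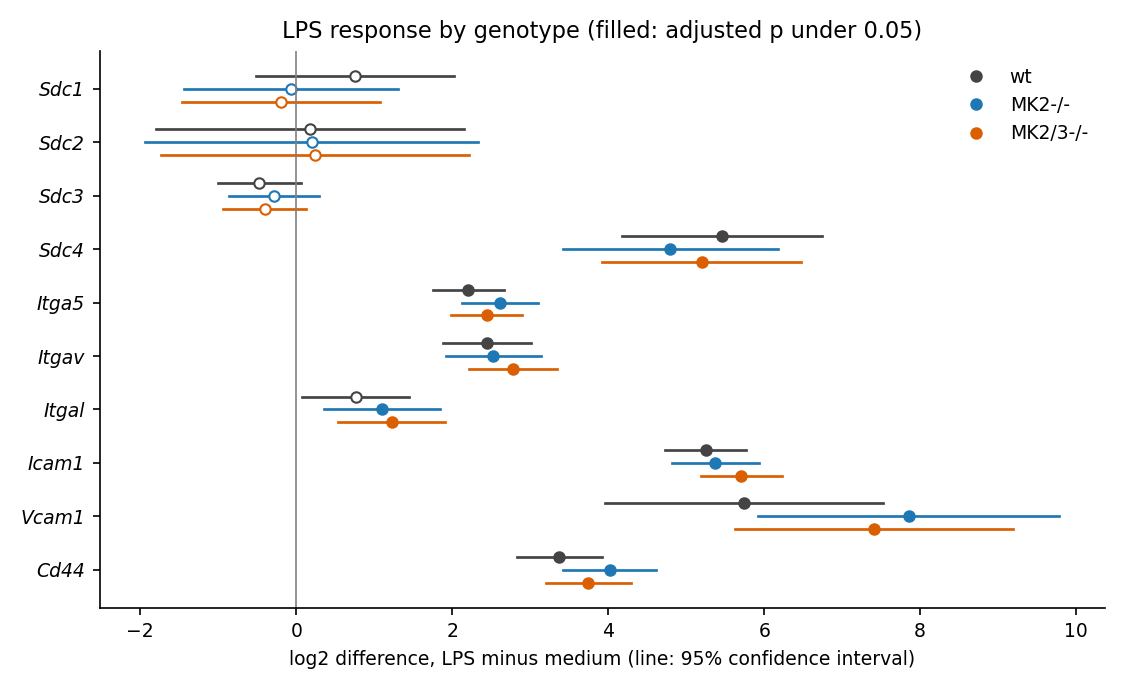
Log2 difference between LPS and medium for each member and genotype, with the 95% confidence interval of the linear model and a filled point where the adjusted p was under 0.05. The 3 genotypes overlap in their intervals for every member, and Itgal in wt BMDM is an open point at 0.76.

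The promoters of Icam1 and Sdc4 are shown because both genes rose with LPS at least 27.8-fold in every genotype. Vcam1 did so too, but no promoter sequence was available for Vcam1, Sdc2 and Itgal. The sequences are those of RefSeq on GRCm38.p6, 250 bases before the gene start, with letters that match a κB consensus in capitals. Icam1 lies at chr9:21015690-21015939 on the plus strand and Sdc4 at chr2:164443189-164443438 on the minus strand.
Icam1: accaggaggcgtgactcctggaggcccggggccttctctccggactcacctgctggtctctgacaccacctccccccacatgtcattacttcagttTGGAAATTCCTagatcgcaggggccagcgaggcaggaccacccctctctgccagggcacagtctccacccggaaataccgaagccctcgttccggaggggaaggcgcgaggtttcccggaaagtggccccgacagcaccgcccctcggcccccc
Sdc4: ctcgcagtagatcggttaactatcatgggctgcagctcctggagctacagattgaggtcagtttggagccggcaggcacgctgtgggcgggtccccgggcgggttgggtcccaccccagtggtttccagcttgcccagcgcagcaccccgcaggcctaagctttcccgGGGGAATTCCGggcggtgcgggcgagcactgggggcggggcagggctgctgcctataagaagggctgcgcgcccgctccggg
The stretch in Icam1 spans bases 154 to 144 before the start and that in Sdc4 bases 82 to 72, and both match on either strand. A κB consensus was searched in a strict and a relaxed form on both strands. It was found in 4 of the 7 member promoters listed (Icam1, Itga5, Sdc1 and Sdc4) and in 11.8% of 32851 promoters. The letters TGANTCA of an AP-1 site were in 0 of 7 and in 6.75% of all. A match of letters is a description and no measurement of binding. Itgav and Cd44 rose without a κB match. Sdc1 had such a match and Sdc3 had none, and neither was called for LPS when arrays of a culture were not paired.

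Among the syndecans, only Sdc4 was called higher with LPS in the fit that does not pair the arrays of a culture. In wt BMDM its log2 signal was 9.76, 9.79, 9.39 and 9.13 in medium and 14.74, 15.56, 15.14 and 14.47 after LPS. In MK2-/- BMDM it was 11.41, 12.01 and 9.43 in medium and 16.69, 17.27, 14.60 and 14.43 after LPS. In MK2/3-/- BMDM it was 12.88, 12.89, 11.35 and 11.44 in medium and 17.63, 17.90, 16.83 and 16.99 after LPS. The medium arrays at 12.88 and 12.89 were those with the lowest and the highest share of probes well above background. All LPS arrays lay above all medium arrays of the experiment, and the MK2/3-/- arrays lay above every wt array of the same treatment. The MK2-/- arrays fell on both sides, with the arrays of the first 2 cultures above the wt range and the others within or just below it.

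LPS raised Sdc4 by 5.46 on the log2 scale in wt BMDM (44.0-fold, SE 0.61, limma adjusted p = 2.009e-06), by 4.80 in MK2-/- (27.8-fold, SE 0.66, adjusted p = 2.367e-05) and by 5.20 in MK2/3-/- BMDM (36.7-fold, SE 0.61, adjusted p = 2.549e-06). Each culture was split between medium and LPS, and within the 11 cultures with both arrays the rise was between 4.75 and 5.77. Without pairing, the response itself differed between the genotypes by -0.66 (MK2-/- against wt, 95% confidence interval -2.54 to 1.22) and -0.26 (MK2/3-/- against wt, -2.07 to 1.55), each with an adjusted p of 1 by limma. Without the third medium array of MK2-/- BMDM the rise in this genotype was 4.04. In the limma fit of the 11 within-culture differences the rise in MK2-/- BMDM was 5.18 (SE 0.20). There the response differed from wt by -0.28 in MK2-/- (SE 0.26, adjusted p = 0.9999) and by -0.26 in MK2/3-/- BMDM (SE 0.24, adjusted p = 0.8583).

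The distance between MK2/3-/- and wt BMDM was of like size under both treatments. After LPS, Sdc4 was 2.36 higher in MK2/3-/- than in wt BMDM (5.14-fold, SE 0.61), which narrowly missed the threshold with a limma adjusted p = 0.05706. In medium it was 2.62 higher (6.16-fold, SE 0.61, limma adjusted p = 0.2245). In both cases the 4 MK2/3-/- arrays lay above the 4 wt arrays, and the exact two-sided permutation test gave p = 0.0286, the smallest it can give for 4 against 4. After LPS 2 of the 10 members had no overlap between these genotypes (Sdc4 and Cd44) against 5.83% of all genes, and in medium 1 against 4.05%. With the culture as a block the adjusted p after LPS was 0.03897 and that in medium 0.1358, and with scaling to the 75th percentile in place of quantile normalization the value after LPS was 2.56 with an adjusted p = 0.0385. MK2-/- BMDM lay above wt BMDM by 0.77 after LPS (SE 0.61, limma adjusted p = 0.8044) and 1.43 in medium (SE 0.66, adjusted p = 0.9999). MK2/3-/- lay above MK2-/- BMDM by 1.59 (SE 0.61, limma adjusted p = 0.4748) after LPS and by 1.19 (SE 0.66, adjusted p = 1) in medium.

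**Figure D3:**
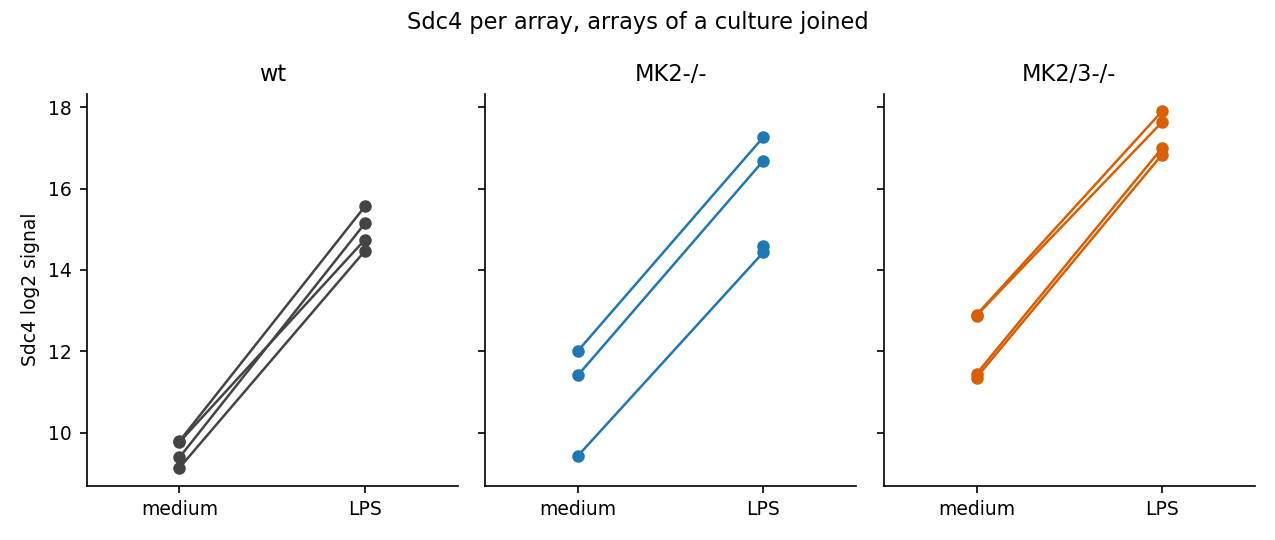
Sdc4 log2 signal in medium and after LPS, 1 panel per genotype, with arrays of the same culture joined by a line; the MK2-/- culture without a medium array stands alone. The lines run nearly parallel, and those of MK2/3-/- BMDM start at 11.35 or above, while wt BMDM start at 9.79 or below.

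Sdc1, Sdc2 and Sdc3 were not called for LPS or genotype when arrays of a culture were not paired. Sdc3, a syndecan known from the nervous system, had log2 differences of -0.47, -0.28 and -0.41 with LPS in wt, MK2-/- and MK2/3-/- BMDM (limma adjusted p = 0.2515, 0.5703 and 0.2791). Without the third LPS array of wt BMDM its fall in this genotype was called, at -0.73 with an adjusted p = 0.04177. Sdc1, the syndecan of epithelia and plasma cells, had 0.75, -0.07 and -0.20, with SDs within the groups from 0.70 to 1.18. Within cultures Sdc3 was lower after LPS in 4 of 4 of wt, by 0.24 to 0.68, and higher in 1 of 3 of MK2-/- and 1 of 4 of MK2/3-/- BMDM. Sdc1 was higher after LPS in 4 of 4 wt cultures, by 0.14 to 1.31, in 2 of 3 of MK2-/- and in 1 of 4 of MK2/3-/- BMDM. In the limma fit of the 11 within-culture differences the rise of Sdc1 in wt BMDM was called (0.75, SE 0.18, adjusted p = 0.01395), and 8 of 10 members were called higher there, against 9.57% of all genes. The response of Sdc1 in MK2/3-/- differed from that in wt BMDM by -0.94 in this fit (SE 0.25, limma adjusted p = 0.4095).

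Sdc2 varied more between cultures than between treatments. In wt BMDM its log2 signal was 9.82, 6.21, 7.47 and 8.04 in medium and 9.90, 6.44, 7.42 and 8.49 after LPS, in the same order of cultures. In MK2/3-/- BMDM it was 6.88, 5.11, 7.15 and 8.94 in medium and 6.92, 6.04, 6.88 and 9.19 after LPS. The culture that was highest in medium was highest after LPS in each genotype. The SD within a group was between 1.07 and 1.57, and the difference between LPS and medium was 0.18, 0.20 and 0.24 in wt, MK2-/- and MK2/3-/- BMDM (limma adjusted p = 0.9596, 0.946 and 0.9069).

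Sdc2 moved with the summed signal of the stromal cell markers Col1a1, Col1a2, Col3a1, Pdgfra, Pdgfrb, Dcn and Cxcl12, of which the collagen chains Col1a1 and Col1a2 made up between 80.4% and 98.0% on an array. Col1a1 and Col1a2 were well above background on all 23 arrays, Dcn on 16 and Pdgfra on 2, and the markers were not set against Sdc2 singly. Across the 11 cultures in medium its log2 signal had a Pearson r of 0.857 with the log2 of their summed signal (adjusted p = 0.0042 over 20 relations, permutation test) and a Spearman rho of 0.873 (adjusted p = 0.00485). After LPS, over 12 cultures, r was 0.899 (adjusted p = 5e-04, permutation test) and rho 0.881 (adjusted p = 0.00247). Without the 2 arrays farthest from the median, r was 0.956 and 0.962, and with the group means removed it was 0.838 and 0.891. Each genotype held 4 cultures at most, too few for a value of its own. Between 2 and 6 of the 7 markers were clear of background throughout a group.

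Sdc4 stood the other way, with r = -0.734 in medium (adjusted p = 0.0344, permutation test; rho -0.682, adjusted p = 0.0604) and -0.669 after LPS (adjusted p = 0.0458, permutation test; rho -0.643, adjusted p = 0.0608). Without the 2 farthest arrays r was -0.627 and -0.548, and with the group means removed -0.792 and -0.732. Wt BMDM had a median log2 stromal sum of 14.7 in medium, compared with 11.2 for MK2-/- and 12.1 for MK2/3-/- BMDM. Of the MK2/3-/- cultures, 2 had a stromal sum within the wt range. Their Sdc4 signal was 11.35 and 11.44 in medium, against 9.79 on the highest wt array, and 16.83 and 16.99 after LPS, against 15.56. In the 2 MK2-/- LPS arrays within that range Sdc4 was 14.43 and 14.60, at the lower end of the wt arrays. A lower share of cells of a type and less RNA per cell cannot be told apart in these samples, and the part of the stromal signal in the differences between genotypes was not tested.

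**Figure D4:**
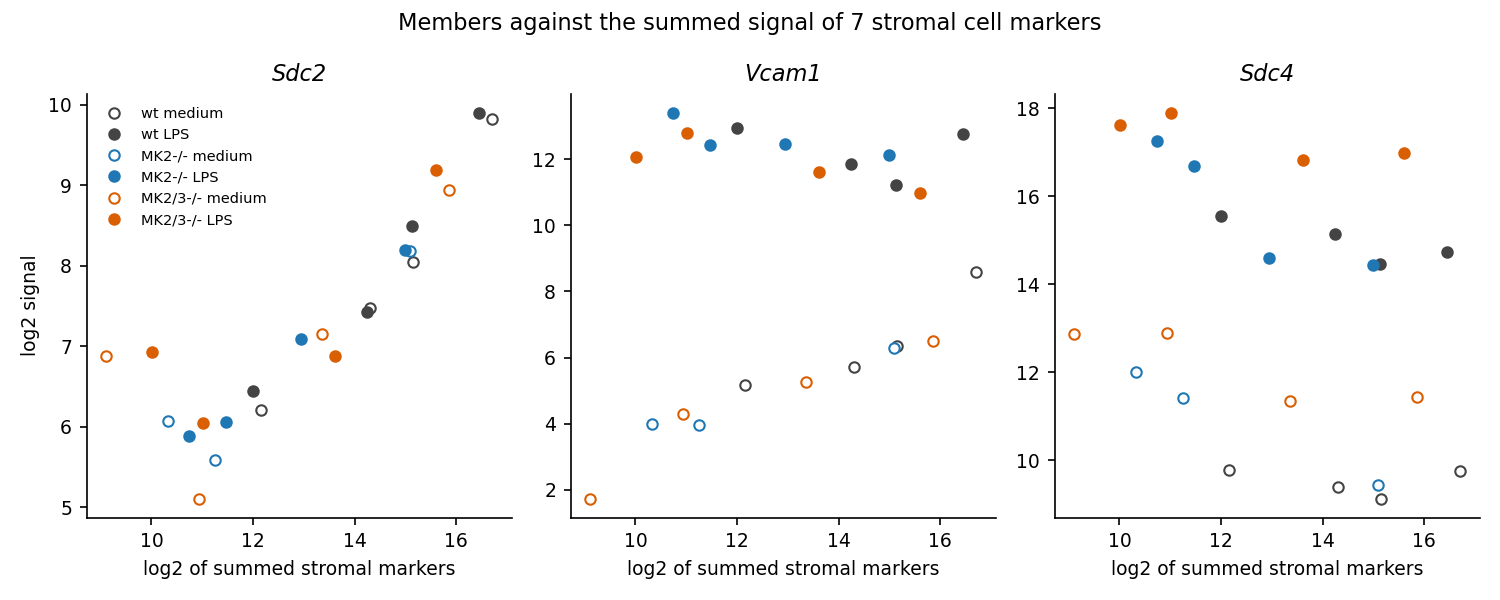
Log2 signal of Sdc2, Vcam1 and Sdc4 on each array against the log2 of the summed signal of 7 stromal cell markers, coloured by genotype, open in medium and filled after LPS. Sdc2 rises with the marker sum under both treatments and Vcam1 in medium (r = 0.949), whereas Sdc4 falls and its MK2/3-/- points lie above the wt points at like sums.

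Of the integrin chains, Itga5 and Itgav rose to a similar extent in all genotypes. Itga5 lay between 9.70 and 10.91 in medium and between 12.21 and 12.97 after LPS over all arrays. LPS raised it by 2.20 in wt (4.61-fold, SE 0.22), by 2.61 in MK2-/- (6.11-fold, SE 0.23) and by 2.44 in MK2/3-/- BMDM (5.44-fold, SE 0.22), with limma adjusted p = 4.121e-07, 1.162e-07 and 6.78e-08. Itgav rose by 2.44, 2.53 and 2.78 (SE 0.27, 0.29 and 0.27; limma adjusted p = 1.71e-06, 2.799e-06 and 2.15e-07). Its other probe gave 1.79, 2.02 and 2.07. No genotype difference of either chain was called. After LPS the differences from wt were at most 0.33 on the probes used, and the other probe of Itgav gave 0.48 for MK2/3-/- BMDM (limma adjusted p = 0.3317).

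Itgal changed least of the members that were called. Its log2 signal in wt BMDM was 11.03, 12.22, 12.04 and 11.09 in medium and 11.86, 13.05, 12.67 and 11.85 after LPS. In MK2/3-/- BMDM it was 12.23, 12.03, 11.91 and 11.36 in medium and 13.26, 13.70, 13.02 and 12.42 after LPS. The wt groups overlapped while the MK2/3-/- groups did not, yet LPS was higher in 11 of 11 cultures, by 0.63 to 0.83 in wt, 1.13 to 1.33 in MK2-/- and 1.04 to 1.68 in MK2/3-/- BMDM.

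Itgal differed by 0.76 on the log2 scale in wt (SE 0.33, limma adjusted p = 0.1365), 1.10 in MK2-/- (SE 0.35, adjusted p = 0.0365) and 1.22 in MK2/3-/- BMDM (SE 0.33, adjusted p = 0.008973). With the culture as a block the rise in wt BMDM was called as well (limma adjusted p = 0.04454). In MK2-/- BMDM the call was lost without any single array of that genotype except the third LPS array, with adjusted p between 0.05028 and 0.1228, and on the other probe (0.87, adjusted p = 0.08918). The responses differed between MK2/3-/- and wt BMDM by 0.46 (95% confidence interval -0.51 to 1.43, adjusted p = 1) when the cultures were not paired. The within-culture rises of Itgal in wt BMDM lay below those of both other genotypes without overlap. Counted in either direction, the cultures did not overlap for 1 of 10 members in MK2-/- against wt (5.96% of all genes). In MK2/3-/- against wt it was 2 of 10 (4.32% of all genes), Itgal and Sdc1, with wt BMDM above for Sdc1. A limma fit of the 11 within-culture differences gave 0.45 for MK2-/- (SE 0.18, adjusted p = 0.9999) and 0.46 for MK2/3-/- against wt BMDM (SE 0.17, adjusted p = 0.6399). Itgal had an r of -0.793 with the stromal sum in medium (adjusted p = 0.0132, permutation test; rho -0.773, adjusted p = 0.0238) and of -0.846 after LPS (adjusted p = 0.0026, permutation test; rho -0.895, adjusted p = 0.0021). Without the 2 farthest arrays r was -0.676 and -0.796.

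Icam1 rose in BMDM of each genotype. Its log2 signal in wt BMDM was 9.13, 9.59, 9.55 and 9.50 in medium and 14.87, 15.15, 14.66 and 14.09 after LPS. In MK2-/- BMDM it was 10.09, 9.97 and 9.45 in medium and 15.43, 15.48, 14.95 and 15.00 after LPS. In MK2/3-/- BMDM it was 9.67, 9.36, 9.51 and 9.55 in medium and 15.68, 15.57, 14.48 and 15.20 after LPS. The genotypes overlapped under either treatment. LPS raised Icam1 by 5.25, 5.38 and 5.71 (38.0-, 41.5- and 52.3-fold; SE 0.25, 0.27 and 0.25; limma adjusted p = 1.25e-11, 4.279e-11 and 4.312e-12). After LPS it was 0.52 higher in MK2-/- and 0.54 higher in MK2/3-/- than in wt BMDM (limma adjusted p = 0.6627 and 0.3484).

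Vcam1 was low in medium and high after LPS. In medium, wt BMDM had log2 signals of 8.59, 5.17, 5.71 and 6.35, MK2-/- BMDM 3.95, 4.00 and 6.28, and MK2/3-/- BMDM 1.74, 4.29, 5.28 and 6.50. It was well above background on 4 of 4, 1 of 3 and 3 of 4 of these arrays. The value of 1.74 came from the array with the lowest share of probes well above background. After LPS, wt BMDM had 12.75, 12.95, 11.85 and 11.21, MK2-/- BMDM 12.41, 13.40, 12.44 and 12.13, and MK2/3-/- BMDM 12.07, 12.80, 11.60 and 10.98. The genotypes overlapped in both cases, and every LPS array was above every medium array.

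Vcam1 rose by 5.74 on the log2 scale in wt (SE 0.85), by 7.85 in MK2-/- (SE 0.92) and by 7.41 in MK2/3-/- BMDM (SE 0.85), with limma adjusted p = 6.304e-05, 3.604e-06 and 2.003e-06. Its second probe gave 4.62, 6.23 and 4.93, and normexp background correction gave 4.87, 6.02 and 5.33. With the dim medium arrays set to their lowest signal well above background, unless the probe's own was higher, the rise in MK2/3-/- BMDM was 6.83. In MK2-/- BMDM this step could not change the 7.85, as the probe's own signal was higher on the dim medium arrays. The response was not called different from wt in either genotype (adjusted p of 1), and its difference has no firm size where medium arrays were not clear of background. In medium Vcam1 followed the stromal sum with r = 0.949 (adjusted p = 2e-04, permutation test, the raw p being the smallest that the permutations can give) and rho = 0.973 (adjusted p = 2e-04), and r was 0.978 without the 2 farthest arrays. After LPS r was -0.528 (adjusted p = 0.1365, permutation test; rho -0.497, adjusted p = 0.1727), and -0.887 without the 2 farthest arrays.

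Cd44 was the only member with a called difference between genotypes. On the probe used, the one that LPS raised most in wt BMDM, wt BMDM had log2 signals of 6.73, 7.48, 7.18 and 7.06 after LPS, MK2-/- BMDM 7.88, 8.33, 7.56 and 8.55, and MK2/3-/- BMDM 8.11, 8.43, 8.04 and 8.47. On this probe, all LPS arrays of the deficient genotypes lay above all wt LPS arrays. In medium, the values were 3.44, 3.76, 4.14 and 3.61 for wt, 4.50, 3.89 and 3.80 for MK2-/-, and 4.69, 5.03, 3.80 and 4.55 for MK2/3-/- BMDM. The probe was dim there, well above background on 1 of 4, 1 of 3 and 2 of 4 arrays, and the groups overlapped.

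After LPS, Cd44 was 1.15 higher in MK2/3-/- than in wt BMDM (2.22-fold, SE 0.26, limma adjusted p = 0.0311, exact permutation p = 0.0286), which made 1 of 10 members called higher in this comparison against 0.773% of all genes (1.64% in either direction). Between MK2-/- and wt BMDM it was 0.97 higher (1.96-fold, SE 0.26), with no overlap on the probe used, as for 1 of 10 members and 3.73% of all genes, but a limma adjusted p = 0.3445. On each of the other Cd44 probes the MK2-/- and wt arrays overlapped after LPS, with differences of 0.62, 1.11 and 0.33. Between MK2/3-/- and MK2-/- BMDM the difference on the probe used was 0.18 (95% confidence interval -0.37 to 0.73). In medium, MK2/3-/- BMDM were 0.78 above wt (SE 0.26, limma adjusted p = 0.802). The call was lost with scaling to the 75th percentile (adjusted p = 0.07998), with normexp background correction (0.06652), with the 2 groups alone in the fit (0.1466), and without the LPS array of wt replicate 1 or 4 or any 1 of the 4 MK2/3-/- LPS arrays (0.05005 to 0.1223). The 4 probes of Cd44 gave 1.15, 1.02, 1.40 and 0.61 for this difference in a fit over all probes, with limma adjusted p = 0.02984, 0.03937, 0.054 and 0.296.

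LPS raised Cd44 on all 4 probes. The probe used gave 3.37 in wt (10.4-fold, SE 0.26), 4.02 in MK2-/- (16.2-fold, SE 0.28) and 3.75 in MK2/3-/- BMDM (13.4-fold, SE 0.26), with limma adjusted p = 1.487e-08, 4.794e-09 and 2.786e-09. With normexp background correction the values were 2.03, 2.94 and 3.05. The brightest probe, near 13 on the log2 scale in medium and well above background on every array, gave 1.27, 1.67 and 2.02. The direction was the same on each probe while the size differed.

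Apart from Cd44 after LPS, no member was called between genotypes. In MK2-/- against wt BMDM after LPS 0 of 10 were called (0.0302% of all genes), with 2 members at an unadjusted p under 0.05 in limma and 1 in the methods' t-test. In MK2/3-/- against MK2-/- BMDM after LPS it was 0 of 10 (0.158% of all genes), with 1 unadjusted in limma and 0 in the t-test. In medium the counts were 0 for MK2-/- against wt (0.00754% of all genes), 0 for MK2/3-/- against wt (0.0792%) and 0 for MK2/3-/- against MK2-/- BMDM (0.0453%), with 1, 3 and 0 members at an unadjusted p under 0.05 in limma and 0, 2 and 0 in the methods' t-test. On the probes used, the LPS response was called different for 0 members in any pair of genotypes, and 0 had an unadjusted p under 0.05 in limma (0.00377%, 0.0113% and 0% of all genes called). Over the 11 within-culture differences, 0 were called in limma as well, and the unadjusted p was under 0.05 for 3 members in MK2-/- against wt (Cd44, Itgal and Sdc1), for 2 in MK2/3-/- against wt (Itgal and Sdc1) and for 0 in the other pair. Other probes of Cd44 gave larger differences of the response from wt, of 1.496 in MK2-/- (limma adjusted p = 1) and 1.38 in MK2/3-/- BMDM (limma adjusted p = 0.878) on one of them, and of 0.75 in MK2/3-/- BMDM on the brightest (limma adjusted p = 1). The unadjusted p of these differences was under 0.05. In MK2-/- BMDM the brightest probe gave 0.39, below the 0.64 of the probe used. The remaining probe gave -0.09 in MK2-/- BMDM. In MK2/3-/- BMDM it gave 0.41, against 0.37 on the probe used.

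**Figure D5:**
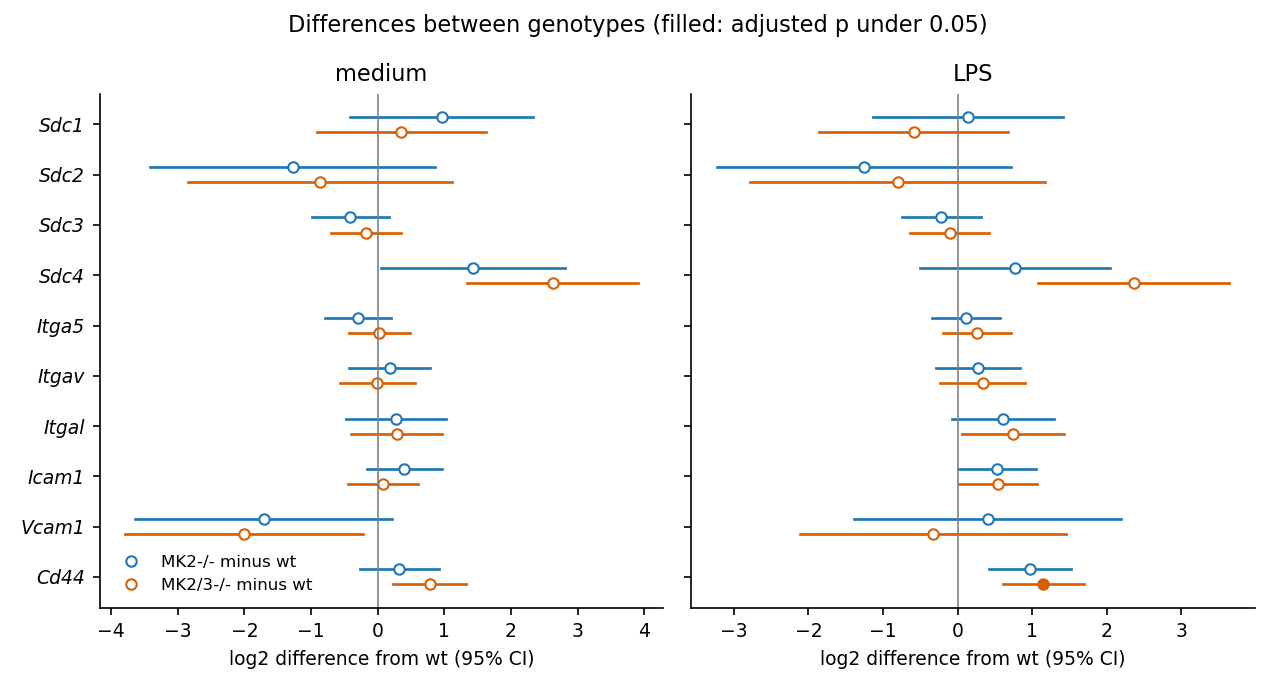
Log2 difference of MK2-/- and MK2/3-/- from wt BMDM in medium (left) and after LPS (right) for the 10 members, with 95% confidence intervals and a filled point where the adjusted p was under 0.05. Sdc4 lies farthest to the right in both panels for MK2/3-/- BMDM (2.62 and 2.36), and Cd44 after LPS is the filled point at 1.15.

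Of 110 further genes of the same pathways that were matched, LPS raised 16 and lowered 5 in wt, raised 19 and lowered 6 in MK2-/- and raised 25 and lowered 6 in MK2/3-/- BMDM. Of all genes, 8.16%, 8.41% and 11.9% were higher and 8.78%, 9.98% and 12.8% lower. The median log2 difference of the lists together was 0.12, 0.21 and 0.31. Among the matrix ligands and enzymes of hyaluronan metabolism, Has1, a hyaluronan synthase, rose at least 21.5-fold in wt, 46.6-fold in MK2-/- and 50.7-fold in MK2/3-/- BMDM (limma adjusted p = 4.039e-08, 1.008e-08 and 2.414e-09). It was not well above background on any medium array, and such bounds set each dim array to its lowest signal well above background, unless its own was higher. Some probes brighter than that signal were not marked as well above background, so that these bounds are approximate. Tnfaip6, which encodes the hyaluronan-binding protein TSG-6, rose by 4.59 in wt BMDM, where 1 of 4 medium arrays was above background, and at least 6.29-fold in MK2-/- and 22.1-fold in MK2/3-/- BMDM, where no medium array was (limma adjusted p = 8.552e-05, 2.749e-04 and 5.163e-06). Hyal1, a lysosomal hyaluronidase, fell by 2.02 in wt and by 1.75 in MK2/3-/- BMDM, where 2 of 4 and 1 of 4 LPS arrays were above background, and was at least 2.05-fold lower in MK2-/- BMDM, where no LPS array was (limma adjusted p = 0.01771, 0.02923 and 0.002458). Tnc, which encodes tenascin-C, rose by 2.71 in MK2-/- (adjusted p = 0.03244) and by 2.49 in MK2/3-/- BMDM (adjusted p = 0.02651), where 1 of 3 and 2 of 4 medium arrays were above background. With the dim arrays set as above its rise was 2.29 and 2.08, and in wt BMDM it was 0.87 (adjusted p = 0.5688). Vcan, which encodes the hyaluronan-binding proteoglycan versican, rose by 3.23 in MK2/3-/- BMDM (adjusted p = 0.01935). Its difference was 1.58 in wt and 2.01 in MK2-/- BMDM, not called in either (limma adjusted p = 0.3411 and 0.223).

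Of 8 sheddases, 2 rose in each genotype, against 8.16%, 8.41% and 11.9% of all genes. Among them was Mmp14, a membrane-bound matrix metalloproteinase, which rose by 2.52, 3.30 and 2.95 (limma adjusted p = 1.053e-04, 1.105e-05 and 1.153e-05). A list of 34 other receptors, named for integrins and the immunoglobulin superfamily, also held the selectin Sele, which belongs to neither. Of these 34 receptors 5, 6 and 8 rose and 0 fell, against the 8.16%, 8.41% and 11.9% of all genes that rose. Sele, which encodes E-selectin, rose at least 3.07-fold in wt and 2.68-fold in MK2/3-/- BMDM, with no medium array above background (limma adjusted p = 3.848e-06 and 5.406e-06). It also rose in MK2-/- BMDM, by 2.27 (limma adjusted p = 5.585e-04), where 3 of 4 LPS and 1 of 3 medium arrays were above background. With the dim medium arrays set as above this rise was 0.91. The 29 genes of heparan sulfate synthesis moved in both directions, with 3, 4 and 5 higher and 4 lower in each genotype. The shares of all genes were 8.16%, 8.41% and 11.9% higher and 8.78%, 9.98% and 12.8% lower. Of 19 cytoplasmic partners 2, 2 and 4 rose, which in wt and MK2-/- BMDM was near the share of all genes (8.16% and 8.41%, with 11.9% in MK2/3-/- BMDM), and of 6 glypicans 1 in each genotype. Between genotypes 1 of the 110 was called, Hs6st1, a heparan sulfate 6-O-sulfotransferase, which was 0.74 higher in MK2/3-/- than in wt BMDM after LPS (SE 0.18, limma adjusted p = 0.04467), while 1.64% of all genes were called in that comparison.

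Among 15931 genes clear of background throughout at least 1 group, those most like Sdc4 over the 23 arrays were Lnpep (Pearson r = 0.962), Cdk12 (0.950), Helz2 (0.950), Tes (0.950) and Slc2a6 (0.949). Those most like Cd44 were Akna (0.981), Crtc2 (0.980), Srgn (0.978), Swap70 (0.977) and Ccrl2 (0.976). These values describe the arrays, which share 2 treatments and 3 genotypes, and were not tested. Lnpep was 0.86 and Cdk12 1.09 higher in MK2/3-/- than in wt BMDM after LPS, compared with 2.36 for Sdc4, and in medium they differed by 0.34 and 0.29, compared with 2.62.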

How the data were processed

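RNA of 23 BMDM samples was hybridized to Agilent arrays, 1 per sample. The deposited intensity of each spot, made by the authors with Feature Extraction 11.0.1.1, is linear, background-subtracted and corrected for gradients except on 2 arrays without a fit. The log2 table deposited by the authors was quantile normalized, centred on probe medians and served as an alternative. Over the 16 member probes it differed by at most 0.0241 from the values used here, centred likewise.

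Marked outlier spots and controls were left out, intensities were log2 transformed without a pseudocount, and 55681 probes were quantile normalized in R 4.3.3 (limma 3.58.1, with data.table at version 1.17.8). Accessions were named with RefSeq of GRCm38.p6, and 5625 accessions without a name there were kept as they are. Per gene, the probe that LPS raised most in wt BMDM was taken, following the methods of the study. All 23 arrays entered a single fit with 6 groups (lmFit, eBayes), with 12 comparisons and Benjamini-Hochberg adjustment over 26512 genes at 0.05. Tests are two-sided. Exact permutation tests were run over arrays, and relations with the stromal sum used 100000 permutations. The steps were tested on simulated data. The number of arrays limits the precision. Figures were drawn in Python with matplotlib.

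By the design text, the replicate numbers and the ages, each culture gave a medium and an LPS array. With group means subtracted, the 11 such pairs correlated with r from 0.360 to 0.774 over 12735 genes. For 33 other pairs r lay between -0.465 and 0.339, with a median of -0.190. Subtracting group means itself lowers r for the other pairs where the pairs of a culture correlate positively. The LPS minus medium differences of the 11 cultures were also fitted with limma over all genes, an alternative chosen after seeing the data.

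The members and the lists were chosen with earlier results of these data known. Named are all members, Mapkapk2 and Mapkapk3, for each comparison at most 5 called pathway genes with the largest change among those clear of background throughout a group (some also with their values for LPS in the other genotypes), and the 5 genes most like Sdc4 and Cd44. Neutrophil, dendritic, T, B and endothelial cell markers were also listed.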

Additional observations from a re-analysis of the deposited data

How the results depend on the processing

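For MK2/3-/- against wt BMDM after LPS, 1 member (Cd44) was called. The count was 0 with only these groups in the fit, 0 by the t-test of the methods run on log2 values, 0 by that run on linear values, 2 with only probes clear of background throughout a group and 2 with the culture as a replicate block (Cd44 and Sdc4), and 0 to 2 when single arrays were left out. Over all genes, 436 were called in this comparison, against 6, 5 and 4 in the first 3 of these settings and 126 to 618 without single arrays. By the t-test on linear values 2412 in place of 4493 were called for LPS in wt and 4072 in place of 6549 in MK2/3-/- BMDM, and by that on log2 values 3 in place of 42 for MK2/3-/- against MK2-/- BMDM after LPS and 2 in place of 21 for MK2/3-/- against wt BMDM in medium. For LPS in MK2-/- BMDM the count was 4 in place of 7 by the methods' t-test on linear values, where the adjusted p was 0.3008 for Sdc4, 0.07379 for Vcam1 and 0.05219 for Itgal. The same test missed the threshold for Vcam1 in wt (0.06843) and MK2/3-/- BMDM (0.05769). Itgal in MK2/3-/- BMDM missed it by the t-test on log2 (0.05229) and linear values (0.09076), and in MK2-/- BMDM with the mean over probes (0.0537) and without the 2 arrays that lack a gradient fit (0.09835), the last chosen after seeing the data. Cd44 in MK2/3-/- against wt BMDM after LPS had 0.1966 and 0.2111 by the t-tests. Sdc4 in this comparison passed with normexp (0.04323), with the filter on dim probes (0.03292) and without the MK2-/- LPS array 2 or 4 or the MK2-/- medium array 3 (0.03739 to 0.04379). The block ended no call and, beside Sdc4, added Itgal in wt BMDM. A fit of within-culture differences, chosen after seeing the data, leaves out the MK2-/- LPS array without a medium partner. It ended no LPS call and added Itgal (adjusted p = 0.001661) and Sdc1 (0.01395) in wt BMDM. All other counts of members stayed within 1.5 times. No direction reversed for a member in a comparison where it was called in any setting. The cause of the changes was not tested. Dim probes limit the size of the Vcam1 and Cd44 responses.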

Other observations

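Markers of other leukocytes and of endothelium were also measured. Of 7 neutrophil markers matched, 4 or 5 were clear of background throughout a group, and their summed signal lay between 2973 and 18270, with the extremes in MK2/3-/- BMDM in medium. Of 5 dendritic cell markers 1 to 3 were above background on every array, and their sum ranged from 99.5 to 358 in medium and, after LPS, from 985 to 2050. Of these only Zbtb46 was called in any comparison (log2 signal 3.39 to 10.86), and Clec9a was above background on 0 arrays. The sum of 5 T cell markers ranged from 945 to 2420 in medium and, after LPS, from 1294 to 11580, with 2 markers above background on every array of each group. Of these only Lck was called in any comparison (6.11 to 13.35), with Cd3e at 9.66 to 11.15 and Cd3d and Cd8a above background on 0 arrays. Such a sum can follow a single marker and is no measure of cell number. The sum of 5 B and plasma cell markers lay between 26.3 and 128, with 3 or 4 of them not above background on any array of a group. Of 5 endothelial markers, 2 were above background on every array, and their sum was 226 to 1247. Relations of the members with these sums were not tested.

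Itgav and Icam1 also moved with the stromal sum. Itgav in medium had r = -0.782 (adjusted p = 0.0132, permutation test; rho -0.809, adjusted p = 0.016; r = -0.732 without the 2 farthest arrays), and Icam1 after LPS had r = -0.698 (adjusted p = 0.0329, permutation test; rho -0.720, adjusted p = 0.0297; r = -0.674 without the 2 farthest arrays). Of the 20 relations, 9 passed an adjusted p of 0.05 by Pearson's r and 7 by Spearman's rho.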
